A study of Mus musculus with 14 samples.

Results

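The genes described here belong to insulin-like growth factor (IGF) signalling and to the families named after it. They are the ligand gene Igf1, the receptor gene Igf1r, 6 genes of secreted IGF-binding proteins (Igfbp2 to Igfbp7) and 2 genes of RNA-binding proteins (Igf2bp1 and Igf2bp3). All probe sets with these symbols were taken, which gave 10 of the 18194 genes and 34 of the 45101 probe sets on the array. A probe set is a group of short array probes read out together as 1 value for a transcript.

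Gene expression was measured on Affymetrix microarrays in mouse embryonic stem cells (ESC), and in embryoid bodies (EB), the aggregates in which such cells differentiate. The study asked whether cells that lack the Rb gene family can stop dividing and differentiate. Cells carried the label TKO or were wild type (WT). The labels do not spell TKO out; from the series title and common usage it is taken to mean that all 3 family genes, Rb1, Rbl1 and Rbl2, were knocked out. There were 5 arrays of TKO EB (lines 2-55-2, 14-14-4, 7-4-1, Dutch and Ta1-12), 3 of WT EB (B21, J1 and R1), 3 of TKO ESC (7-4-1, Dutch and Ta1-12) and 3 of WT ESC (B21, J1 and R1). Each array of a group came from another cell line, so the spread within a group is a spread between lines, and each line is measured once at a stage. The alleles, the age of the EB and any use of feeder cells are not given in the sources used here.

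IGF1 and IGF2 bind the IGF1 receptor, a tyrosine kinase that acts through insulin receptor substrates, PI3-kinase and AKT on growth and survival. The IGF-binding proteins are secreted, hold the ligands outside the cell and can limit or prolong their access to the receptor; proteases that cut the binding proteins release the ligand. IGFBP7 is related to them but binds IGFs weakly. The proteins encoded by Igf2bp1 and Igf2bp3 bind mRNAs, among them that of Igf2, and are known for high levels in embryonic tissue and in stem cells.

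Values are intensities, the brightness of a probe set on a linear scale as deposited, and array medians lay between 83.2 and 107.9. Rbl1 was at 15.9 to 1096 in TKO EB against 493 to 1090 in WT EB, and at 24.5 to 492.5 in TKO ESC against 355.6 to 693.8 in WT ESC. The arrays labelled TKO Ta1-12 gave the highest Rbl1 values of both TKO groups, 1096 as EB, just above the WT EB range, and 492.5 as ESC, within the WT ESC range. Dutch, at 377.1 as EB and 250.3 as ESC, was below the WT ranges but far above the other TKO lines, which lay at 15.9 to 38.3. Rb1 overlapped between genotypes, at 300.5 to 912.8 in TKO EB against 407.1 to 1018.4 in WT EB, and at 115.9 to 607.1 in TKO ESC against 138 to 790.6 in WT ESC. Rbl2 was at 296.8 to 1098.7 in TKO EB against 722.8 to 1726.9 in WT EB, and at 658.5 to 843.2 in TKO ESC against 411.1 to 661.3 in WT ESC. Whether these probes lie in a deleted part is not given, so the labels are not decided by them, and counts are also given without Ta1-12 and without Dutch. Pou5f1, a gene of the undifferentiated state, was at 11053 to 12950 in TKO ESC and 9880 to 11681 in WT ESC. In EB it was at 17.1 to 7410 in TKO lines against 32.8 to 55.2 in WT lines, and the highest TKO EB values were those of Dutch (7410) and 14-14-4 (6133). The summed intensity of 12 mesenchyme markers was 31519 to 126628 in TKO EB and 101109 to 124941 in WT EB, with Dutch (31519) and 14-14-4 (63600) lowest; it was 836 to 978 in TKO ESC and 1169 to 1408 in WT ESC. Macrophage markers, 9 genes, summed to 1454 to 18231 in TKO EB against 14814 to 32070 in WT EB. In TKO ESC they summed to 550 to 763, and in WT ESC to 596 to 845, with Ptprc, C1qa, C1qb, Fcer1g and Lyz2 below an intensity of 32 on all ESC arrays.

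Promoter sequences are shown for the 4 members with the steepest changes between stages (Igf1, Igfbp4, Igfbp5 and Igfbp7) and for Igfbp2, which is the direct neighbour of Igfbp5 on chromosome 1 in assembly GRCm38.p6 and showed no call. The RefSeq promoter table of GRCm38.p6 matched 9 of the 10 members, all but Igf2bp1. Each line gives the 100 bases before the annotated start, 5′ to 3′ on the gene's strand; capitals mark either of the motifs searched on both strands, TATAAA, which is known from TATA boxes, and GGGCGG, which is known as GC box (read as CCGCCC where it lies on the other strand).
Igf1, chr10:87861011-87861110, plus strand: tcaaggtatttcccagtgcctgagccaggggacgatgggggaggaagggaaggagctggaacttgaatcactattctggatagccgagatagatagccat
Igfbp4, chr11:99041144-99041243, plus strand: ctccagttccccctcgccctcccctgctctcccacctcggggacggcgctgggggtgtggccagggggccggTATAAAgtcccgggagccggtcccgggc
Igfbp5, chr1:72874866-72874965, minus strand: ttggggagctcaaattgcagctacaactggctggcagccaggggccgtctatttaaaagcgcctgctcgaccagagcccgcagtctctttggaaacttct
Igfbp7, chr5:77408046-77408145, minus strand: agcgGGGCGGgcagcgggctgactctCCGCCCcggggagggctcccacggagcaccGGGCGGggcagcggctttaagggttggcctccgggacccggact
Igfbp2, chr1:72824380-72824479, plus strand: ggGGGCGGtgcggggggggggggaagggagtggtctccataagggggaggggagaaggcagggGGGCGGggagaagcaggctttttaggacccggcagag
Igfbp4 held 1 TATAAA, whose first base lay 28 bases before the start. Among all 32851 promoters of the table, 5.56% held TATAAA in the same window and 24.7% held GGGCGG. Igfbp7 held 3 GC boxes, at 96, 74 and 44 bases before the start, and the Igfbp2 window shown held 2, at 98 and 37 bases. The window of a second annotated Igfbp2 start, chr1:72825287-72825386, which is not shown, held neither motif. Igf1 and Igfbp5 held neither motif. The number of CG dinucleotides was 2 for Igf1, 8 for Igfbp4, 4 for Igfbp5, 11 for Igfbp7 and 4 for Igfbp2, beside a median of 3 over all promoters. The listed motifs did not overlap one another.

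Between EB and ESC, Igf1 and the genes of the binding proteins IGFBP3, IGFBP4, IGFBP5 and IGFBP7 were higher in EB of both genotypes, by 2.63 to 8.0 on the log2 scale. Igf1r and Igf2bp3 also rose in TKO EB, by less than 1. Igfbp6 rose and Igf2bp1 fell in WT EB. Igfbp2 was bright at both stages and passed in neither genotype. A gene was called where limma's p, adjusted over 14365 genes by Benjamini-Hochberg, was under 0.05. Values under 32 were raised to 32 before log2, so changes of genes that lie under this floor are understated.

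In TKO EB versus TKO ESC, 7 of the 10 genes were called, all 7 higher, where 35.7% of all genes tested were called, 20.8% higher and 14.9% lower. In WT EB versus WT ESC, 7 were called, 6 higher and 1 lower, where 43.6% of all genes were called, 26.2% higher and 17.4% lower. Arrays of the stages did not overlap for 7 genes higher and 1 lower in TKO cells (21.1% and 14.6% of all genes), and for 5 higher and 1 lower in WT cells (35.1% and 25.2%). The median log2 change of the 10 genes was 2.42 in TKO and 2.73 in WT cells, beside 0.08 in TKO and 0.13 in WT cells over all genes tested. Without the arrays labelled TKO Ta1-12, 4 of the 10 genes were called in TKO cells (21.7% of all genes), and Igf1r, Igfbp3 and Igf2bp3 were no longer among them. Without line Dutch, 7 were called in TKO cells (35.5% of all genes). With the line as a fixed block, 4 were called in TKO cells (22% of all genes), with Igf1r, Igfbp3 and Igf2bp3 again lost.

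Igf1 encodes the secreted ligand IGF1. Its intensity was 2548.5, 696.1, 5037.4, 81.7 and 1843.9 in TKO EB 2-55-2, 14-14-4, 7-4-1, Dutch and Ta1-12, against 29.4, 26.1 and 32.1 in TKO ESC 7-4-1, Dutch and Ta1-12. The values were 2829.1, 4464.5 and 919.3 in WT EB B21, J1 and R1, against 24.6, 42.1 and 46.1 in WT ESC of the same lines. All EB arrays lay above all ESC arrays in each genotype, with TKO EB Dutch far below the other EB lines, and the ESC values lay at or near the floor. The log2 change was 5.05 ± 1.01 (standard error, SE) in TKO cells, with an adjusted p of 0.0026, and 5.84 ± 1.13 in WT cells, with an adjusted p of 0.00192. Line by line, EB exceeded ESC by 7.30 in 7-4-1, 5.84 in Ta1-12 and 1.35 in Dutch on the log2 scale, and by 4.32 to 6.73 in the 3 WT lines. These are whole cultures, in which fewer cells of a type and less RNA per cell cannot be told apart. TKO EB Dutch also had the lowest mesenchyme marker sum of the EB arrays, and the part of this in the Igf1 value was not tested.

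**Figure D1:**
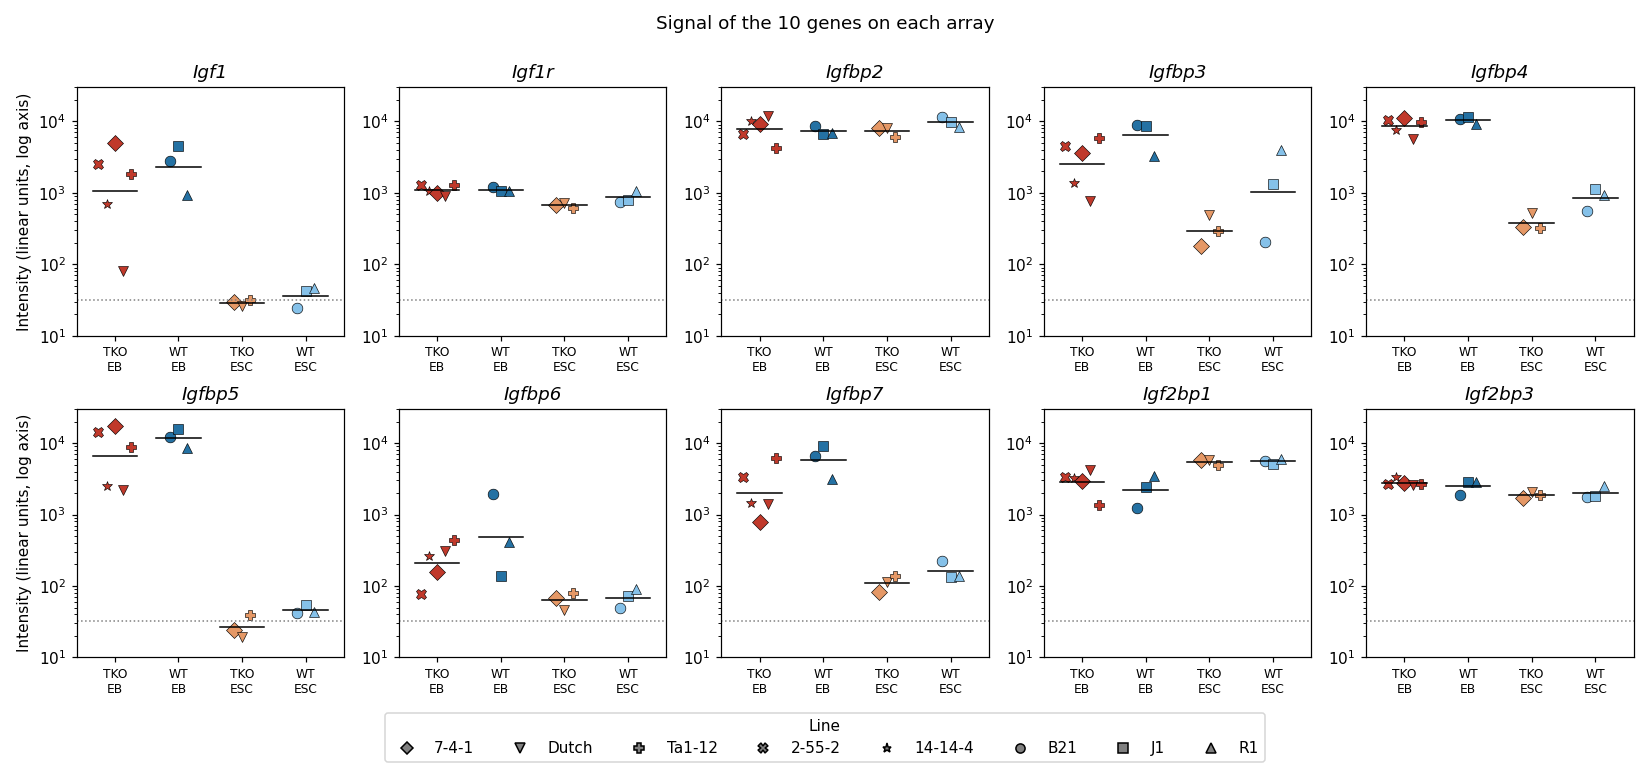
Intensity (linear units on a log axis) of the probe set that stands for each of the 10 genes, with 1 point per array, marker shapes for lines, bars at the geometric mean of each group and a dotted line at the floor of 32. Igf1 and Igfbp5 lie near the floor on all ESC arrays and above it on all EB arrays, and Igfbp2 lies between 4297.2 and 11796.9 throughout.

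Igf1r encodes the receptor kinase. Its intensity was 1279.3, 1075.3, 996.2, 900.1 and 1293 in TKO EB 2-55-2, 14-14-4, 7-4-1, Dutch and Ta1-12, against 683.4, 729.4 and 607.8 in TKO ESC 7-4-1, Dutch and Ta1-12. The values were 1217.5, 1053.4 and 1068 in WT EB B21, J1 and R1, against 740.5, 804 and 1069.3 in WT ESC. The TKO groups did not overlap, whereas WT ESC R1 reached the level of the WT EB arrays. Igf1r rose by 0.71 ± 0.17 in TKO cells (limma adjusted p = 0.0076), and its change in WT cells was 0.37 ± 0.19 (adjusted p = 0.139). The TKO call was lost with the line as a fixed block (0.65, adjusted p = 0.0974) and when line Ta1-12 was left out (0.58, adjusted p = 0.066). With the mean of all its probe sets, Igf1r was called in WT cells too (0.59, adjusted p = 0.0284).

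Igfbp5 had the largest change of the 10 genes in each genotype. Its binding protein is found in the extracellular matrix and is known from muscle, bone and other mesenchyme. Igfbp5 intensity was 14363.4, 2524.1, 17447.5, 2195.6 and 8917.5 in TKO EB 2-55-2, 14-14-4, 7-4-1, Dutch and Ta1-12, against 24.5, 19.4 and 39.2 in TKO ESC 7-4-1, Dutch and Ta1-12. In WT EB B21, J1 and R1 it was 12312.1, 15786.5 and 8563, against 42.4, 54.4 and 43.3 in WT ESC. No EB array overlapped an ESC array, and 14-14-4 and Dutch were the lowest EB arrays. The log2 change was 7.59 ± 0.60 in TKO (adjusted p = 1.01e-05) and 8.0 ± 0.67 in WT cells (adjusted p = 2.26e-05). A second Igfbp5 probe set changed by less, 2.74 in TKO and 3.09 in WT cells, and was called in both.

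Igfbp4 encodes a binding protein known to hold back IGF action and to be cut by the protease PAPP-A. Its intensity was 10372.9, 7595.2, 11080.5, 5609.4 and 9864.3 in TKO EB 2-55-2, 14-14-4, 7-4-1, Dutch and Ta1-12, against 327.9, 514.5 and 324.2 in TKO ESC 7-4-1, Dutch and Ta1-12. The values were 10852.2, 11324.1 and 9093.3 in WT EB B21, J1 and R1, against 556.9, 1142 and 922.9 in WT ESC. The stages were far apart in both genotypes, and on this probe set the EB arrays lay between 5609.4 and 11324.1. A dimmer Igfbp4 probe set spread the EB arrays more widely, from 443.8 in TKO EB Dutch to 2521.4 in WT EB J1. Igfbp4 rose by 4.51 ± 0.27 in TKO (adjusted p = 9.98e-07) and by 3.63 ± 0.30 in WT cells (adjusted p = 2.07e-05), with all 6 of its probe sets called higher in each genotype. Of the genes that rose in both genotypes, Igfbp4 had the smallest standard errors.

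Igfbp7 encodes the weak IGF binder, a secreted protein of vessel walls and stroma. Its intensity was 3334.1, 1443.4, 783.9, 1418.8 and 6158.2 in TKO EB 2-55-2, 14-14-4, 7-4-1, Dutch and Ta1-12, against 81.9, 113.8 and 136.9 in TKO ESC 7-4-1, Dutch and Ta1-12. The values were 6651.8, 9103.2 and 3178.6 in WT EB B21, J1 and R1, against 223.7, 133.2 and 137 in WT ESC. Stages did not overlap, and among TKO EB the lowest line was 7-4-1, the line with the highest Igf1 and Igfbp5 values. Igfbp7 rose by 4.21 ± 0.56 in TKO (adjusted p = 0.000238) and by 5.17 ± 0.63 in WT cells (adjusted p = 0.000196). The 8 endothelium markers summed to 1588 to 6825 in TKO EB against 1271 to 2051 in TKO ESC. In WT cells the sums were 2641 to 8315 in EB against 1253 to 2431 in ESC. The markers did not move together. Of 7 tested, 2 were called higher (Kdr and Flt1) and 1 lower (Eng) in TKO cells, where 35.7% of all genes were called. Without a call, Cdh5 (2.55) and Emcn (1.39) were above 0 there, and Pecam1 (-1.91) and Tek (-0.74) below. In WT cells 4 were called higher, where 43.6% of all genes were called. The part of these markers in the Igfbp7 change was not tested.

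Igfbp3 encodes the main IGF carrier of serum. Its intensity was 4517.5, 1368.1, 3574.6, 760.1 and 5819.3 in TKO EB 2-55-2, 14-14-4, 7-4-1, Dutch and Ta1-12, against 179.1, 492.6 and 289.7 in TKO ESC 7-4-1, Dutch and Ta1-12. The values were 8991.2, 8723.9 and 3263.7 in WT EB B21, J1 and R1, against 207.1, 1320.3 and 3927.3 in WT ESC. TKO arrays did not overlap, while WT ESC R1 was above WT EB R1, and the WT ESC arrays were spread over more than an order of magnitude. Igfbp3 rose by 3.09 ± 0.87 in TKO (adjusted p = 0.0153) and by 2.63 ± 0.97 in WT cells (adjusted p = 0.043). With the line as a fixed block the adjusted p was 0.0923 in TKO and 0.106 in WT cells. The WT call held in 13 of the 26 alternatives tried, and without WT ESC B21 the change was 1.48 (adjusted p = 0.192). WT ESC R1 had a mesenchyme marker sum of 1344, beside 1169 in B21 and 1408 in J1. Its pluripotency marker sum was the lowest of the WT ESC arrays, 82759 beside 112076 in B21 and 96463 in J1, and its neural marker sum the highest, 3268 beside 2445 and 1848. The part of these markers in the R1 value was not tested.

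Igfbp6 encodes a binding protein with a preference for IGF2. Its intensity was 77.4, 264.7, 155.2, 306 and 438.1 in TKO EB 2-55-2, 14-14-4, 7-4-1, Dutch and Ta1-12, against 67, 46.7 and 79.9 in TKO ESC 7-4-1, Dutch and Ta1-12. The values were 1960.7, 139.9 and 418.2 in WT EB B21, J1 and R1, against 48.7, 73.5 and 90.9 in WT ESC. The TKO groups overlapped through EB 2-55-2; the WT groups did not, and B21 stood highest among WT EB. The change was 1.75 ± 0.72 in TKO (adjusted p = 0.0735) and 2.82 ± 0.80 in WT cells (adjusted p = 0.0133). Without WT EB B21 the WT change was 1.82 (adjusted p = 0.0548). The TKO value passed in 4 of the 26 alternatives. In TKO cells 3 of 3 lines measured at both stages were higher as EB, by 1.21 to 2.71 on the log2 scale.

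Igfbp2, whose binding protein is common in embryonic tissue, did not share this pattern. Its intensity was 6651.9, 10052.8, 9220.9, 11796.9 and 4297.2 in TKO EB 2-55-2, 14-14-4, 7-4-1, Dutch and Ta1-12, against 8189.9, 7997.6 and 5999.5 in TKO ESC 7-4-1, Dutch and Ta1-12. The values were 8748.5, 6712.3 and 6761.3 in WT EB B21, J1 and R1, against 11463.3, 9917.7 and 8428.8 in WT ESC. EB and ESC arrays overlapped in both genotypes, and the highest TKO EB array was Dutch, the line lowest for Igf1 and Igfbp5. The change was 0.11 ± 0.27 in TKO (adjusted p = 0.763) and -0.42 ± 0.30 in WT cells (adjusted p = 0.263). In the WT lines Igfbp2 was lower as EB in 3 of 3, with log2 differences of -0.56 to -0.32.

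Igf2bp1 had the opposite direction. Its intensity was 3389.9, 3258.1, 2962.9, 4248.3 and 1359.4 in TKO EB 2-55-2, 14-14-4, 7-4-1, Dutch and Ta1-12, against 5711.8, 5743 and 4977 in TKO ESC 7-4-1, Dutch and Ta1-12. The values were 1249.2, 2462.5 and 3501.3 in WT EB B21, J1 and R1, against 5579.6, 5078.1 and 6064.3 in WT ESC. Every EB array lay below every ESC array of its genotype, with TKO EB Ta1-12 and WT EB B21 lowest. The log2 change of Igf2bp1 was -0.94 ± 0.35 in TKO cells (adjusted p = 0.0514), and it fell by 1.33 ± 0.39 in WT cells (adjusted p = 0.0154). The TKO value passed in 8 of the 26 alternatives. Among these were the line as a random block (limma adjusted p = 0.0469) and leaving out TKO EB Dutch and 14-14-4 (-1.19, adjusted p = 0.0245). It did not pass without line Ta1-12 (-0.74, adjusted p = 0.114) or without line Dutch (-1.05, adjusted p = 0.0737). Without WT EB B21 the WT change was -0.92 (adjusted p = 0.0722).

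Igf2bp3 changed little. Its intensity was 2669.3, 3333.4, 2778.7, 2618.1 and 2668.5 in TKO EB 2-55-2, 14-14-4, 7-4-1, Dutch and Ta1-12, against 1724.5, 2086.5 and 1878.5 in TKO ESC 7-4-1, Dutch and Ta1-12. The values were 1891.6, 2869.2 and 2857.9 in WT EB B21, J1 and R1, against 1785.7, 1808.8 and 2538.6 in WT ESC. The TKO stages did not overlap and the WT stages did. Igf2bp3 rose by 0.57 ± 0.17 in TKO (adjusted p = 0.0207), and its change in WT cells was 0.31 ± 0.19 (adjusted p = 0.205). The TKO call was lost with the line as a fixed block (0.51, adjusted p = 0.0775), after leaving out line Ta1-12 (0.58, adjusted p = 0.0777), under quantile normalisation (adjusted p = 0.0504) and with the mean of all probe sets (0.37, adjusted p = 0.108).

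**Figure D2:**
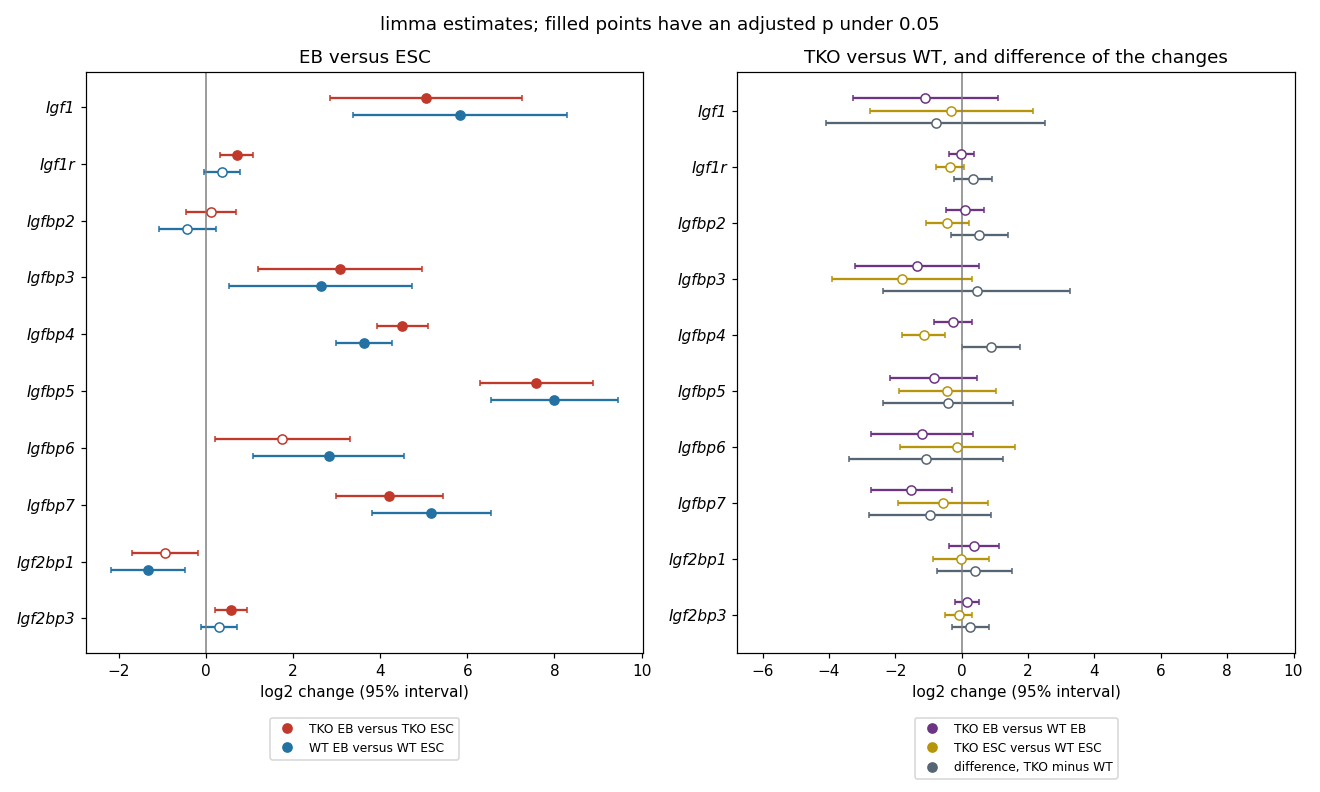
Log2 change (points) with its 95% interval (bars) from limma for each gene, EB versus ESC at left for TKO and WT cells, and at right TKO versus WT for EB and for ESC with the difference of the 2 stage changes. Filled points have an adjusted p under 0.05; all points at right are open.

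Several of these genes are read by more than 1 probe set, and 32 of the 34 probe sets passed the filter on low values. Fitted as features of their own, 20 were called higher and 2 lower in TKO EB versus TKO ESC, where 35% of all 31122 probe sets were called, 18.1% higher and 16.9% lower. In WT EB versus WT ESC, 19 were called higher and 4 lower, where 40.3% of all probe sets were called, 22.7% higher and 17.6% lower. All 4 Igf1 probe sets were called higher in each genotype, with changes of 3.06 to 5.05 in TKO and 3.83 to 6.16 in WT cells. Igf1r probe sets ran from -0.36 to 1.50 in TKO and from -0.26 to 1.25 in WT cells, and 3 of 4 tested were called higher in TKO and 2 of 4 in WT cells. The representative Igf1r probe set, the brightest on average, was not among those called in WT cells. Of the 4 Igf2bp1 probe sets, 2 were called lower in TKO and 4 in WT cells. For Igfbp7, a dimmer probe set changed by 0.88 in TKO (adjusted p = 0.167) and by 2.46 in WT cells (adjusted p = 0.00346). With the mean of all probe sets of the gene, the Igfbp7 change was 1.70 in TKO and 2.55 in WT cells, both still called. For Igf2bp3, 2 of 6 probe sets were called in TKO and none in WT cells.

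**Figure D3:**
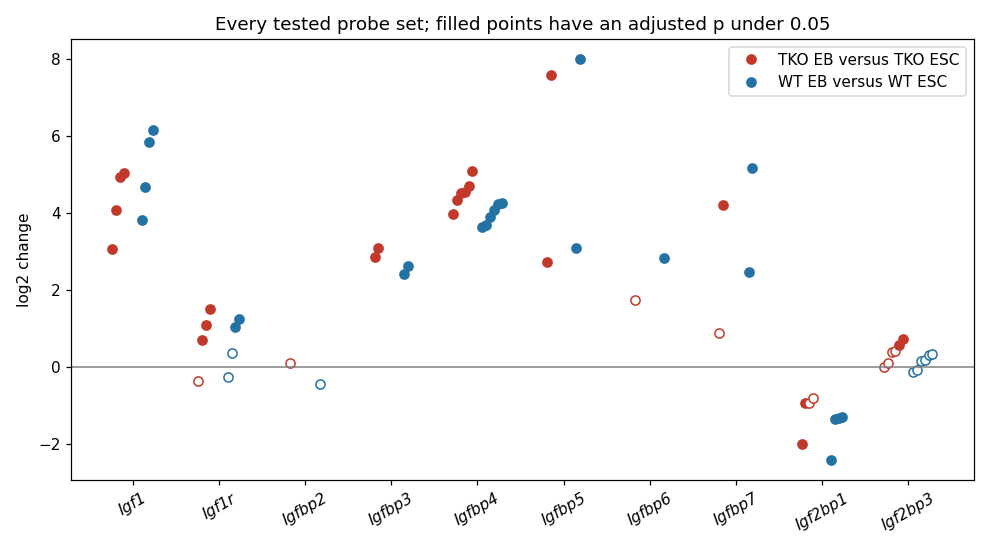
Log2 change of every tested probe set of the 10 genes, EB versus ESC, for TKO (left of each pair) and WT cells (right), with filled points for an adjusted p under 0.05. The 6 Igfbp4 probe sets lie close together, and the 2 of Igfbp5 lie far apart.

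Between genotypes in EB, 7 of the 10 estimates were below 0, the lowest that of Igfbp7, and none of the genes was called. The median log2 change of the 10 genes was -0.556, beside -0.102 over all genes tested. In TKO EB versus WT EB limma called 0 of the 10 genes and 0% of all genes tested. At an unadjusted p under 0.05, 1 of the 10 passed, beside 14.2% of all genes. Igfbp7 was at -1.52 ± 0.56 (95% interval -2.74 to -0.30, adjusted p = 0.313), with 4 of 5 TKO EB arrays below the WT EB mean. TKO EB Ta1-12 (6158.2) and 2-55-2 (3334.1) were within the WT EB range of 3178.6 to 9103.2. The lines 7-4-1 (783.9), Dutch (1418.8) and 14-14-4 (1443.4) lay below it. Without the arrays labelled TKO Ta1-12, Igfbp7 was lower in TKO EB by a log2 change of -1.92 (adjusted p = 0.0354), where 7.64% of all genes were called. The dimmer Igfbp7 probe set was at -1.58 ± 0.48 with all arrays (adjusted p = 0.33).

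The remaining genes showed intervals in TKO EB versus WT EB that held 0, and their widths differed. For Igf1 the estimate was -1.09 (95% interval -3.29 to 1.10), for Igfbp3 -1.34 (-3.22 to 0.53), for Igfbp6 -1.20 (-2.75 to 0.35) and for Igfbp5 -0.85 (-2.15 to 0.46). These intervals do not exclude a several-fold lower level in TKO EB. Narrower intervals were found for Igf1r, -0.02 (-0.39 to 0.36), Igf2bp3, 0.17 (-0.20 to 0.54), Igfbp4, -0.26 (-0.84 to 0.32), Igfbp2, 0.11 (-0.47 to 0.69) and Igf2bp1, 0.37 (-0.38 to 1.12). All 10 genes overlapped between TKO EB and WT EB arrays, where 3.88% of all genes did not.

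The TKO EB lines did not shift together. On the log2 scale, and against the mean of the WT EB arrays, Dutch was at -4.79 for Igf1, -3.06 for Igfbp3, -2.43 for Igfbp5 and -2.02 for Igfbp7. The line 14-14-4 was at -1.70, -2.21, -2.23 and -2.0 for the same genes. These were the lines with the highest pluripotency marker sums among TKO EB, 81540 in Dutch and 66175 in 14-14-4, beside 10175 to 19306 in the others. The line 7-4-1 differed: it was at 1.15 for Igf1 and 0.56 for Igfbp5, and at -2.88 for Igfbp7. Without Dutch and 14-14-4, the stage change in TKO cells was called for 8 of the 10 genes, with Igf2bp1 added, where 45.3% of all genes were called. The part of these lines' marker levels in the differences was not tested.

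**Figure D4:**
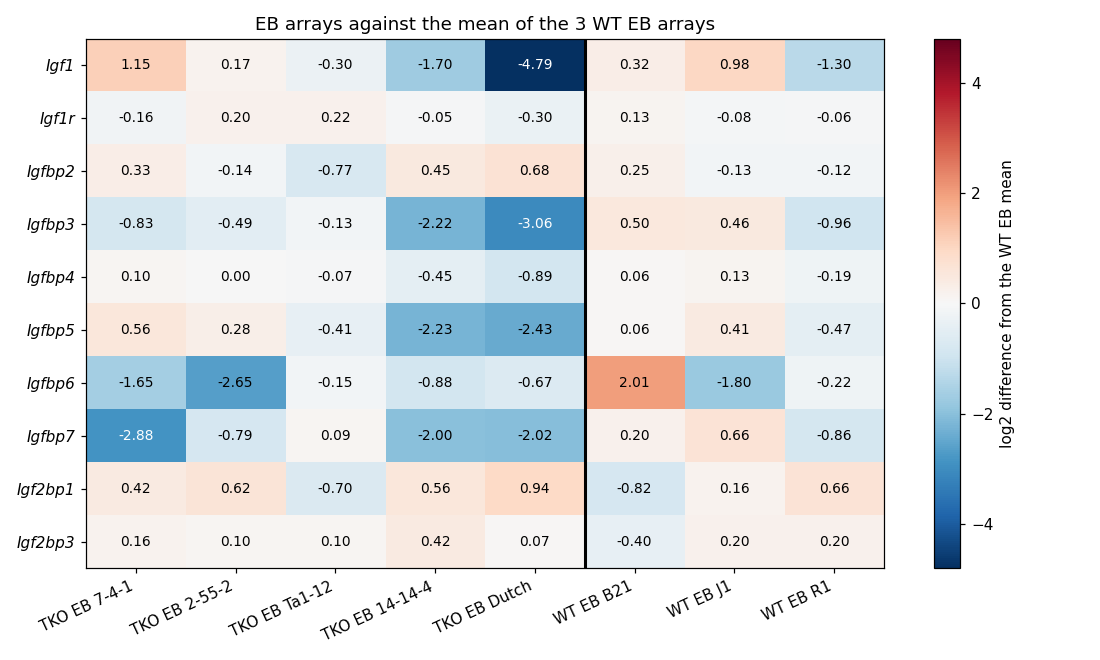
Log2 difference of each EB array (columns, TKO lines left of the black line, WT lines right) from the mean of the 3 WT EB arrays, for the 10 genes (rows), with colour and printed number giving the difference. Dutch and 14-14-4 have the lowest Igf1, Igfbp3 and Igfbp5 values, and 7-4-1 the lowest Igfbp7 value.

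In ESC, all 10 estimates of TKO ESC versus WT ESC were below 0 on the probe sets that stand for the genes, and none was called. The median log2 change of the 10 genes was -0.393, beside -0.025 over all genes tested. The sign was not shared by all probe sets, which reached 0.39 for Igf1r, 0.18 for Igf2bp1 and 0.02 for Igf1. Limma called 0 of the 10 genes and 0% of all genes tested; at an unadjusted p under 0.05, 1 of the 10 passed, beside 2.74% of all genes. That gene was Igfbp4, at -1.14 ± 0.30 (95% interval -1.79 to -0.49, adjusted p = 1). Without the arrays labelled TKO Ta1-12 it was at -1.03 (adjusted p = 1), 0 of the 10 genes were called, and 9 of the 10 estimates were below 0, with Igf2bp1 at 0.04. Without line Dutch, 0 of the 10 were called, Igfbp4 was at -1.36 (adjusted p = 1), and Igfbp6 was at 0.09. The 3 TKO ESC arrays of Igfbp4, 327.9, 514.5 and 324.2, lay below the 3 WT ESC arrays, 556.9, 1142 and 922.9. On the probe sets that stand for them, Igf1r, Igfbp2 and Igfbp5 also had every TKO ESC array below every WT ESC array. This makes 4 of the 10 genes, where 6.84% of all genes tested did so. The arrays overlapped on the other tested Igf1r probe sets (-0.74 to 0.39), the second Igfbp5 probe set (-0.10) and a dimmer Igfbp4 probe set (-0.77). Igfbp5 was near or under the floor on all ESC arrays, and the Igfbp3 estimate of -1.80 (95% interval -3.90 to 0.30) spanned 0.

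The change from ESC to EB was also compared between genotypes. For this difference of changes, TKO minus WT, limma called 0 of the 10 genes and 0% of all genes tested. At an unadjusted p under 0.05, 1 of the 10 passed, beside 3.63% of all genes. It was Igfbp4, at 0.88 ± 0.40 (95% interval 0.01 to 1.75, adjusted p = 0.975). Over the 6 Igfbp4 probe sets this difference ran from -0.27 to 0.88, so its sign was not shared by all of them. For Igf1r, called in TKO but not in WT cells, the difference was 0.34 (-0.22 to 0.90), for Igf2bp3 0.26 (-0.29 to 0.81), for Igfbp6 -1.07 (-3.39 to 1.25) and for Igf2bp1 0.39 (-0.73 to 1.52). Calls made in 1 genotype alone are thus not shown to differ between genotypes.

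Among 10 other ligands, receptors and binding proteins, 5 were tested and 4 were called higher in both genotypes, where 20.8% of all genes were called higher in TKO and 26.2% in WT cells. Igf2, the fetal growth factor gene, rose by 6.30 ± 0.67 in TKO and 5.40 ± 0.75 in WT cells. Igfbp1, the neighbour of Igfbp3 on chromosome 11, rose by 4.62 in TKO and 6.29 in WT cells. Igf2r, the receptor that clears IGF2, rose by 1.87 in TKO and 1.32 in WT cells, and Insr, the insulin receptor gene, by 1.29 in TKO and 1.31 in WT cells. The list's median change was 1.87 in TKO and 1.32 in WT cells, beside 0.08 in TKO and 0.13 in WT cells over all genes. Igf2bp2 had no probe set of its own gene alone and was not analysed here.

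Of 23 genes of the adaptors and the kinase cascade, 20 were tested, and 7 were called higher and 2 lower in TKO, against 10 higher and 2 lower in WT cells. Over all genes tested, 35.7% were called in TKO and 43.6% in WT cells, and 11 of the 20 were not called in TKO and 8 in WT cells. In TKO cells the smallest adjusted p-values were those of Irs1, an insulin receptor substrate, at 4.82 (adjusted p = 0.000346), Akt1 at 2.12 (adjusted p = 0.000372) and Mtor at -0.77 (adjusted p = 0.00287). In WT cells they were those of Akt1 at 2.56, Akt2 at 1.62 and Pik3r1, a regulatory subunit of PI3-kinase, at 3.49. The list's median change was 0.60 in TKO and 0.58 in WT cells, against 0.08 in TKO and 0.13 in WT cells over all genes.

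All 7 genes of a chosen list of proteases that act on binding proteins, and of inhibitors of such proteases, were tested. In each genotype 5 were called higher, again beside 20.8% of all genes in TKO and 26.2% in WT cells. The median change was 1.84 in TKO and 3.04 in WT cells, beside 0.08 in TKO and 0.13 in WT cells over all genes. Pappa, which encodes the PAPP-A protease that cuts IGFBP4, rose by 2.40 in TKO and 3.18 in WT cells. Adam12 rose by 3.85 in TKO and 4.44 in WT cells, and Htra1 by 1.84 in TKO and 3.04 in WT cells; both encode proteases reported to cut binding proteins. Of 8 genes linked to the IGF2BP proteins, 5 were tested. In TKO cells 2 were called, both higher, where 35.7% of all genes were called. In WT cells 3 were called higher and 1 lower, where 26.2% of all genes were called higher and 17.4% lower. The median change of this list was 0.13 in TKO and 0.89 in WT cells, beside 0.08 and 0.13 over all genes. Cd44, a cell surface receptor gene, rose by 5.39 in TKO and 4.38 in WT cells, and Hmga2 rose by 2.84 in TKO and 1.34 in WT cells. Lin28a, a gene of undifferentiated cells, was at -2.65 in TKO cells (adjusted p = 0.0516), with no overlap of the arrays, and fell by 3.97 in WT cells (adjusted p = 0.0119). Actb, which encodes beta-actin, was at 0.13 in TKO cells (adjusted p = 0.106) and rose by 0.23 in WT cells. In the genotype comparisons none of the 4 lists had a called gene.

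Profiles most like those of the members were taken as the smallest root mean square difference of centred log2 values over the 14 arrays. For Igfbp5 these were Lum (0.40), Cdh11 (0.42) and Postn (0.47), which encode matrix and adhesion proteins of mesenchyme. For Igf1 they were Mfap4 (0.35), Nfix (0.44) and Islr (0.47). Igfbp4 was closest to Itm2a (0.30), Plagl1 (0.35) and App (0.38), and Igf2bp1 to Nup107 (0.18), Pkn3 (0.21) and Tedc1 (0.23). Igfbp7 and Igfbp3 had less close partners, with Clca3a1 at 0.63 and Bcl2 at 0.58. The genes with small changes had close partners over a narrow range: Mmadhc (0.12) for Igf1r, Mvb12b (0.15) for Igf2bp3 and Ccdc180 (0.23) for Igfbp2, while Igfbp6 was closest to Hacd4 (0.57). The arrays share stage and line, so these distances are a description.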

How the data were processed

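RNA of mouse ESC and EB cultures was hybridised to Affymetrix arrays, per the labels. The deposited table holds linear intensity values that the authors had summarised to probe sets. Their background correction, scaling and summarisation are not given in the sources used here. Values ran from 0.596 to 25702. The spread of the array medians was 0.374 (log2), and no centring was added. Symbols came from the platform annotation (34958 probe sets with 1 symbol, 932 with several and 9211 with none) and were checked against RefSeq of GRCm38.p6, where 34754 matched.

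The probe set with the highest mean log2 value stood for a gene. Genes were tested where at least 3 arrays exceeded their 40th percentile. The main limma 3.58.1 fit (R 4.3.3, with lmFit, then contrasts, then eBayes with a trend) used all 14 arrays and 4 group means. Benjamini-Hochberg adjustment was made in each of 5 comparisons. Adjusted p-values come from this fit, except where an alternative or a single probe set is named. Those come from a separate limma fit with that setting or with all probe sets as features. The procedure was tested on simulated data, drawn as independent normal values with no shared line, so this does not check the effect of lines. The number of arrays limits the precision, and the spread is shared by all groups.

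The genes, lists and alternatives were chosen with earlier results of these data known. Members were named in full, Igf2, Igf2r, Insr and Igfbp1 always, and up to 3 called genes of each other list and genotype by smallest adjusted p. In all, 26 alternatives were tried, of which leaving out line Dutch was chosen after seeing the data. The line names pair ESC and EB arrays of 6 lines; deviations from the group means correlated within a line at -0.08 to 0.20 over 14365 genes.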

Additional observations from a re-analysis of the deposited data

Results flagged for a closer look

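Igf2bp3 was flagged in TKO EB because 1 array stood apart from the other 4. Line 14-14-4 was at 3333.4, and the other lines lay at 2618.1 to 2778.7. The gap to the nearest line was 0.753 of the group's range on the log2 scale, above the critical value of 0.71 for 5 samples. Chance flags about 1 in 20 groups, and the cause was not tested.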

How the results depend on the processing

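Of the 26 alternatives, 14 left out 1 array each, and the others changed the floor to 16 or 64, the normalisation, the filter, the choice of probe sets, the arrays fitted or the line term. No estimate that had been called reversed. In TKO EB versus TKO ESC, 7 genes were called (35.7% of all genes). The count was 4 with the line as a fixed replicate block (22%) and 4 without line Ta1-12 (21.7%). Without line Dutch, an alternative chosen after seeing the data, it was 7 (35.5%). The count ran from 5 to 9 when each array was left out in turn, where 24.9% to 43.6% of all genes were called. In WT EB versus WT ESC the count ran from 5 to 7 without each array (32.2% to 47.1% of all genes), beside 7 with all arrays (43.6%). In TKO EB versus WT EB, 1 gene, Igfbp7, was called without line Ta1-12 (7.64% of all genes). Leaving out each array gave 0 to 1, again Igfbp7 without TKO EB Ta1-12 (limma adjusted p = 0.024, with 9.57% of all genes called). TKO ESC versus WT ESC and the difference of changes gave 0 to 0. With line as a fixed replicate block, Igf1r, Igfbp3 and Igf2bp3 in TKO cells and Igfbp3 in WT cells lost their calls, and no other call changed. Calls of Igf1, Igfbp4, Igfbp5 and Igfbp7 between stages held in 26 of 26 alternatives in both genotypes. Absolute levels near the floor of 32 cannot be ordered.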

Other observations

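Genes of the binding proteins outside the main group differed widely between EB lines. Igfbp1, known from liver and decidua, was at 230.9, 164.2, 6311.6, 194.6 and 6585.4 in TKO EB 2-55-2, 14-14-4, 7-4-1, Dutch and Ta1-12, and at 4205.7, 368.1 and 10172.1 in WT EB B21, J1 and R1. It lay between 7.2 and 16.6 on all ESC arrays. Visceral endoderm markers, 9 genes, summed to 14841, 7839, 11546, 24513 and 58232 in the same TKO EB lines and to 37604, 16929 and 54416 in the WT EB lines. Igfbpl1 was at 302.1 in TKO EB 7-4-1 on the probe set that stood for it. The other TKO EB lines lay at 41.1 to 87.3 and WT EB at 61.2 to 103. Its second probe set was at 863.7 in TKO EB 7-4-1, against 11.6 to 49.5 in the other TKO EB lines and 26.2 to 129.8 in WT EB.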
